A study of Komagataella phaffii with 72 samples.

Results

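Production of rhG-CSF, the human granulocyte colony-stimulating factor (labelled rG-CSF), was compared with that of rhGH, the human growth hormone, in *K. phaffii* NRRL Y-11430. The comparison took every Y-11430 library by strain, product, and clone label except rhG-CSF clone 16. It holds 15 of the 72 libraries of the series, namely 6 cultures of rhG-CSF clones 12 and 13 and 9 cultures of rhGH clones 8, 22, and 25. Clone 16 was left out because its 3 libraries lay apart from its sister clones, a choice made with earlier results of these data known, and values with it are given beside the results. Every clone is a separate transformant of the same strain that carries its transgene behind the methanol-inducible *AOX1* promoter, and the cultures A, B, and C are repeats of a clone. RNA was taken from all cultures after 24 hr of growth on 4% glycerol followed by 24 hr on 1.5% methanol. No Y-11430 culture without a transgene was analysed here, so a difference between the products cannot be assigned to one of them. The study chose the clones to range from low to high copy number of the transgene, but copy number is not in the labels and was not used here. With 2 clones against 3 the product and the clone can only partly be told apart.

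*K. phaffii* is a methylotrophic yeast. On methanol it strongly transcribes *AOX1*, which encodes alcohol oxidase, the first enzyme of methanol use, and the same promoter is therefore the usual driver of a secreted product. A secreted protein passes through the endoplasmic reticulum and the Golgi before it crosses the cell wall. Both products are small human proteins that take this path, and rhG-CSF is known for its tendency to aggregate.

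In 3′ DGE libraries, each transcript is read only near its 3′ end. Total counts per library ranged from 560661 to 2365481, with 4911 to 5057 of the 5120 genes detected. Levels of a gene are given as the deposited log2(TPM + 1), where TPM expresses each library's transcripts as shares of a fixed sum. Fold changes come from the counts by edgeR's quasi-likelihood test, always as rhG-CSF over rhGH and on the log2 scale. A gene was called at a Benjamini-Hochberg adjusted p under 0.05. The 3 transgene rows were left out of the fits. Cultures of a clone are not separate transformants, so a fit on counts summed by clone is given beside the fit over cultures.

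The transgene rows matched the product labels in all 15 libraries. The rhG-CSF transgene stood at 13.52, 13.74, and 13.70 in clone 12 and at 12.62, 12.66, and 12.73 in clone 13. In clone 16, which was not compared, it reached 16.06 to 16.14. The rhGH transgene lay between 12.63 and 13.24 in the 9 rhGH cultures. Every culture of clone 12 was thus above every culture of clone 13 in product transcript. The marker transgene was at 8.46 to 8.78 in clone 12, at 7.25 to 7.61 in clone 13, and at 8.64 to 9.17 in the rhGH cultures. The part of transgene levels in the differences below was not tested.

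Before any comparison, 3 of the 9 rhGH libraries stood apart, namely 22A, 8A, and 8C. Over the 4646 genes tested, their log2(CPM + 1) values (CPM, counts scaled to a fixed total) correlated with each other at r = 0.949 to 0.972, but with the other 6 rhGH libraries at only 0.871 to 0.918. The other 6 correlated among themselves at 0.936 to 0.963. These correlations are across genes, which are not independent replicates. The separation crossed the clone labels, since 8A correlated at 0.972 with 22A and at 0.901 with 8B of its own clone. No library of another strain was closer to any of the 3 than they were to each other, the highest correlation among 54 such libraries being 0.917. Still, each was closer to a library of another strain than to the cultures of its own clone outside the 3. For 22A these values were 0.917, with rhGH 11C of strain Y-48124, and 0.9 to 0.903 with 22B and 22C. For 8A they were 0.912 and 0.901 with 8B, and for 8C 0.895 and 0.885 with 8B. In the plot of principal components, the first component (27.7% of the variance) set these 3 libraries apart, and the second (23.7%) set the rhG-CSF libraries apart from all rhGH libraries. The labels give no batch or date for the cultures, so these libraries were kept under their labels, and results are also given without them, which was decided once their values were known. The 6 rhG-CSF libraries correlated with each other at 0.945 to 0.973.

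**Figure D1:**
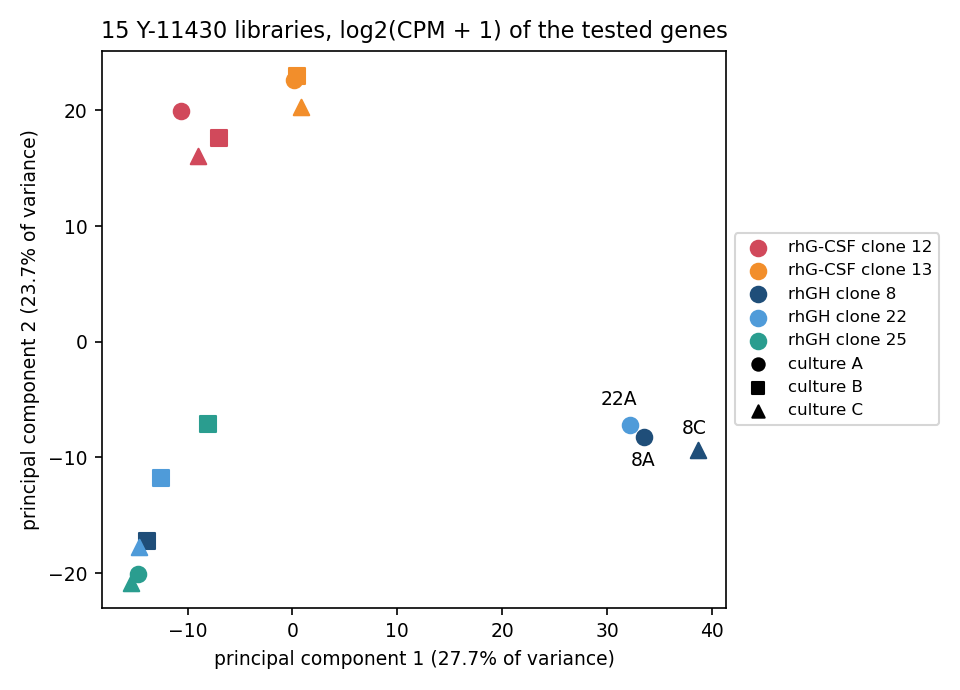
First and second principal components of log2(CPM + 1) over the 4646 tested genes in the 15 Y-11430 libraries. Each point is a library, with colour for the clone and shape for the culture; rhGH 22A, 8A, and 8C lie between 32.2 and 38.7 on the first component, while no other library is above 0.843.

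Over cultures, the libraries of the 2 products differed over a broad part of the transcriptome. Fewer genes were called over clones, and only 20 of 4966 there when clone 16 was included, as given below. With so few clones, the difference cannot be assigned to the product alone. Of 4646 genes tested over cultures, 962 were called (20.7%), 445 higher (9.58%) and 517 lower (11.1%) with rhG-CSF. Most of these differences were small. The median log2 fold change was 0.68 among the genes that rose, or 1.61-fold, and -0.63 among the genes that fell, or 1.54-fold. A change beyond 1 on the log2 scale was seen for 114 genes that rose and 100 that fell, and a change beyond 2 for 11 and 12 genes. The median over all tested genes was -0.01, so the bulk of genes was centred near no change. In bulk RNA, fewer cells that express a gene and less of its RNA per cell cannot be told apart. The share of genes called rose with the level of the gene, from 12.6% in the lowest of 4 equal classes by mean log2 CPM to 27.3% in the highest. Among called genes, the median absolute log2 fold change was 1.02 in the lowest class and 0.60 in the highest.

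**Figure D2:**
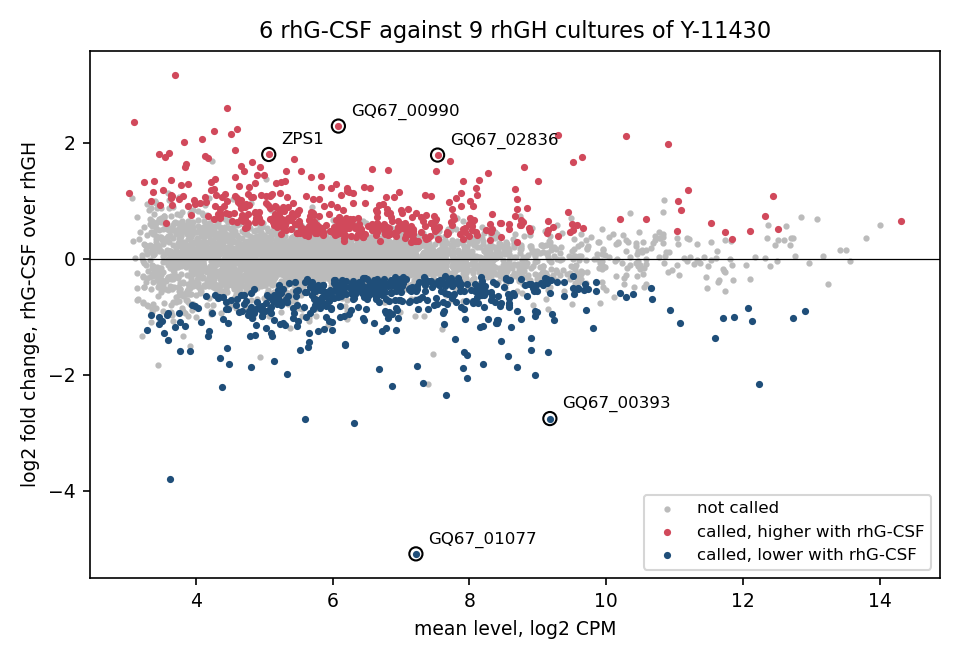
Log2 fold change of rhG-CSF over rhGH for each of the 4646 tested genes (vertical axis) against its mean level in log2 CPM (horizontal axis), from 6 and 9 cultures. Red and blue points are the 445 higher and 517 lower genes called at an adjusted p under 0.05, grey points were not called, and the 5 circled genes are described in the text.

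With the counts of a clone's cultures summed, 464 of 4977 genes were called (9.32%), 249 higher and 215 lower. Of these, 432 were also called over cultures, all in the same direction, which is 93.1% of the clone calls and 44.9% of the culture calls. Without rhGH 22A, 8A, and 8C, the counts rose to 1383 of 4564 genes over cultures (30.3%) and 961 of 4957 over clones (19.4%). In all 4 of these fits, 384 genes were called in the same direction, 212 higher and 172 lower with rhG-CSF. The 4 fits draw on the same libraries, so their agreement is not independent.

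The number of genes called moved with the clones included. With clone 12 left out, 362 genes were called over cultures and 127 over clones, and with clone 13 left out, 373 and 109. When clone 16 was included, 1087 genes were called over cultures, of which 640 were among the 962, but only 20 of 4966 over clones. Leaving out rhGH clone 25, which holds none of 22A, 8A, and 8C, left 895 calls over clones, whereas leaving out rhGH clone 8 or 22 left 236 or 158.

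**Figure D3:**
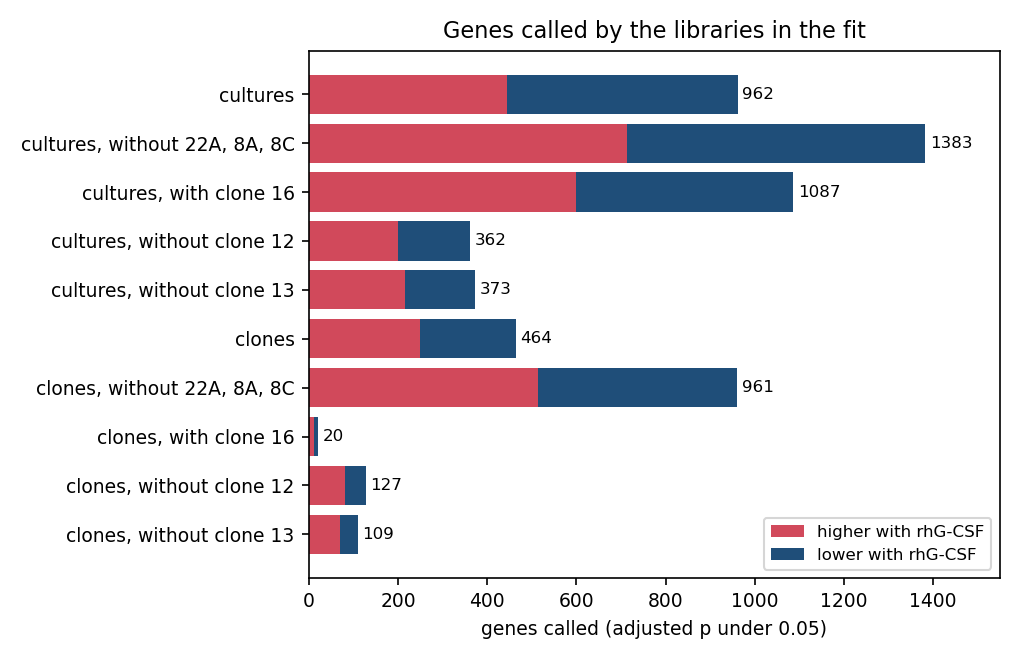
Number of genes called at an adjusted p under 0.05 (horizontal axis) in fits over cultures or over counts summed by clone, with the libraries named on the left added or left out. Red is higher and blue lower with rhG-CSF; the counts run from 20 over clones with clone 16 to 1383 over cultures without rhGH 22A, 8A, and 8C.

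Individual genes were also compared without a model, by whether the 6 rhG-CSF cultures all lay above or all below the 9 rhGH cultures in log2(TPM + 1). This held for 270 of the 4646 tested genes (5.81%), 138 higher and 132 lower. Without rhGH 22A, 8A, and 8C it held for 569 (12.2%), with clone 16 for 163 (3.51%), and on the log2(CPM + 1) scale for 277 (5.96%). The means of the 2 rhG-CSF clones lay on one side of the 3 rhGH clone means for 2007 genes (43.2%), a much weaker demand. Both the separation and a call over clones were met by 206 genes, 120 higher and 86 lower with rhG-CSF. From these, the 2 higher and 2 lower genes with the smallest p over clones are described next. The files give them only by identifier, and no source used here pairs these identifiers with a gene name or role.

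GQ67_00990 was higher with rhG-CSF. It stood at 6.63, 6.57, and 6.60 in clone 12 and at 6.04, 6.31, and 7.04 in clone 13, against 3.74 to 4.55 with a median of 4.45 in the 9 rhGH cultures. Thus the lowest rhG-CSF culture, 13A, was above the highest rhGH culture, 8A at 4.55. Expression differed by 2.29 on the log2 scale (standard error 0.15, adjusted p = 2.58e-08 from edgeR), a 4.89-fold difference, and 2.35 over clones (adjusted p = 8.87e-05). It was 2.30 without rhGH 22A, 8A, and 8C. In clone 16, GQ67_00990 was higher still, at 8.99 to 9.11, and with that clone the log2 fold change was 3.70 over cultures (adjusted p = 3.20e-05) and 3.69 over clones, where it was no longer called (adjusted p = 0.0793).

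GQ67_02836 was also higher with rhG-CSF, at 6.03, 5.64, and 5.78 in clone 12 and 6.04, 5.54, and 5.81 in clone 13. The rhGH cultures ranged from 3.33 to 4.66 with a median of 4.14, without overlap. The log2 fold change was 1.79 (standard error 0.17, adjusted p = 1.99e-06 from edgeR), or 3.46-fold, and 1.79 over clones (adjusted p = 4.82e-04). Clone 16 did not share the rise. Its cultures stood at 3.97 to 4.14, within the rhGH range, and with it the log2 fold change was 1.41 over cultures, called, and 1.40 over clones with an adjusted p of 0.187.

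GQ67_01077 had the largest difference of the named genes and was lower with rhG-CSF. It stood at 1.85, 1.53, and 0.96 in clone 12 and at 1.56, 1.18, and 1.55 in clone 13, from only 4 to 13 counts per library. The rhGH cultures were spread from 2.97 to 7.28, with a median of 5.67. The 3 lowest of them were 22A at 2.97, 8C at 2.99, and 8A at 3.06, whereas 8B stood at 6.82 and 25A at 7.28. The log2 fold change was -5.08 (standard error 0.81, adjusted p = 2.89e-04 from edgeR) over cultures, -4.91 (adjusted p = 3.04e-05) over clones, and -5.59 without the 3 libraries. With limma-voom and the clone as a random block it was -4.25 (standard error 1.51, adjusted p = 0.0553). Clone 16 lay between, at 3.27 to 3.50, and with it the log2 fold change was -3.71 over cultures (adjusted p = 6.26e-04) and -3.59 over clones (adjusted p = 0.0724).

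GQ67_00393 was lower with rhG-CSF, at 6.27, 5.96, and 6.18 in clone 12 and 5.63, 5.78, and 6.22 in clone 13. The rhGH cultures ranged from 7.20 to 9.72 with a median of 9.16. Here the lower rhGH values were 25B at 7.20, 8C at 7.40, 22A at 7.50, and 8A at 7.60, and the other 5 lay at 9.16 or above. The log2 fold change was -2.75 (standard error 0.40, adjusted p = 1.25e-04 from edgeR), a 6.74-fold difference, and -2.51 over clones (adjusted p = 4.32e-04). In clone 16 the gene was at 6.90 to 7.19, just below the rhGH range, and with it the log2 fold change was -2.27 over cultures (adjusted p = 2.76e-04) and -2.05 over clones (adjusted p = 0.0724).

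**Figure D4:**
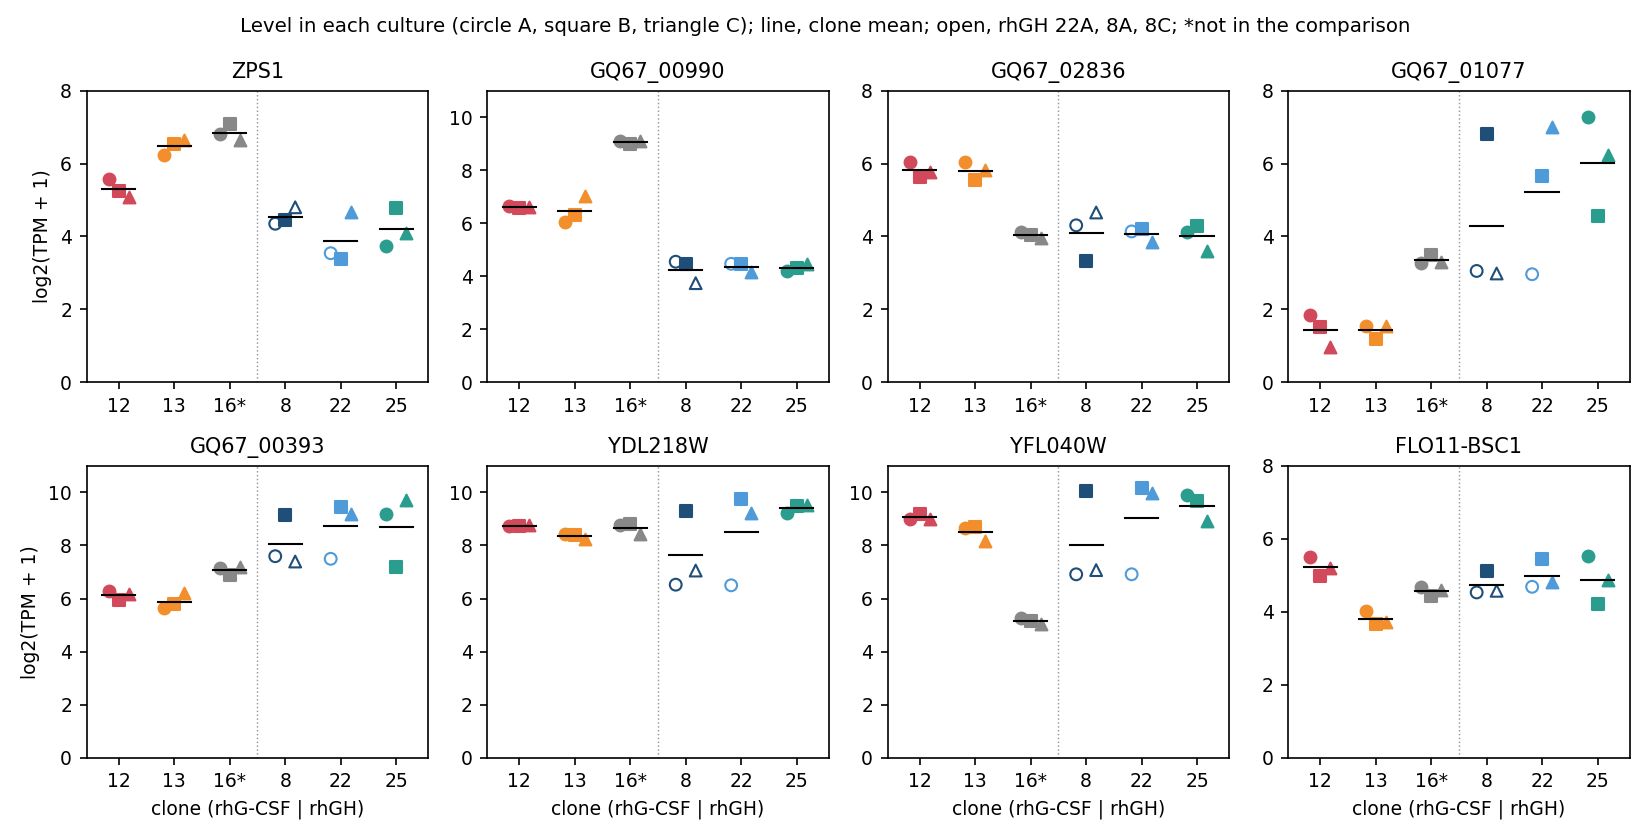
Level in log2(TPM + 1) (vertical axis) of 8 genes in every Y-11430 culture by clone (horizontal axis, rhG-CSF clones left and rhGH clones right of the dotted line). Circles, squares, and triangles are cultures A, B, and C, lines are clone means, and open symbols are rhGH 22A, 8A, and 8C, which are the lowest rhGH values for *YDL218W* (6.50 to 7.05) and *YFL040W* (6.91 to 7.07); clone 16 is drawn but was not compared.

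The study pairs 8 identifiers with the names of *Saccharomyces cerevisiae* homologs. They lie within a list of 20 genes that weighed most on a principal component of strains without transgenes. In the study, that component set the strain GS115 apart from the others. The roles given here are those known in *S. cerevisiae*. The list was chosen on other cultures than these. Of its 20 genes, all tested, 4 were higher and 1 was lower with rhG-CSF (25.0%, against 20.7% of all genes). Over clones, 3 were higher and 1 was lower (4 of 20, against 9.32% of all genes). Of the 10 genes with positive weights on that component, 0 were higher and 1 was lower over cultures, and of the 10 with negative weights, 4 were higher and 0 lower. The median log2 fold changes were 0.15 and 0.09, beside -0.01 for all genes. Without rhGH 22A, 8A, and 8C, 0 and 3 of the first set and 6 and 1 of the second were higher and lower, with medians of -0.01 and 0.73 beside 0.01 for all genes (30.3% called).

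Of the 8 genes with a name, only *ZPS1* (GQ67_03591) was called with all 15 libraries. *ZPS1* encodes a cell surface protein whose transcription rises when zinc is scarce. It stood at 5.59, 5.26, and 5.08 in clone 12 and at 6.24, 6.52, and 6.64 in clone 13. The rhGH cultures ranged from 3.39 to 4.80 with a median of 4.35, so the products did not overlap. The log2 fold change was 1.80 (standard error 0.31, adjusted p = 5.27e-04 from edgeR), or 3.48-fold, and 1.82 over clones (standard error 0.38, adjusted p = 0.0208). It was 1.75 without rhGH 22A, 8A, and 8C, which stood at 3.54, 4.35, and 4.80. With clone 13 left out, it was 1.01 and no longer called (adjusted p = 0.0545). Clone 16 was the highest of the 3 rhG-CSF clones, at 6.64 to 7.07. With it the log2 fold change was 2.18 over cultures and 2.17 over clones, where the adjusted p was 0.0793. The gene is low, with 8 to 54 counts in the rhGH libraries and 37 to 144 in the rhG-CSF libraries of clones 12 and 13.

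*CTR1* and *FRE1*, the genes of copper and iron uptake among the 8, were not called with all 15 libraries. *CTR1* (GQ67_04497), the high-affinity copper transporter, lay between 10.91 and 11.11 in the 6 rhG-CSF cultures and between 10.92 and 11.60 in the rhGH cultures, and the log2 fold change by edgeR was -0.27 (standard error 0.15, adjusted p = 0.212). *FRE1* (GQ67_04112), which encodes a cell surface reductase of iron and copper, was at 6.97 to 7.25 and at 6.81 to 7.74, and its log2 fold change was -0.24 (standard error 0.16, adjusted p = 0.313). Over clones they were at -0.28 (adjusted p = 0.404) and -0.27 (adjusted p = 0.281). Both genes separated the rhGH libraries that stood apart. *FRE1* was highest in 8A at 7.74, 22A at 7.73, and 8C at 7.71, and *CTR1* was lowest in 8C at 10.92, 22A at 11.02, and 8A at 11.09. Without these libraries, *CTR1* was called lower with rhG-CSF over cultures (log2 fold change -0.38, adjusted p = 0.021) but not over clones (adjusted p = 0.0854), and *FRE1* was at -0.04 (adjusted p = 0.856).

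Another pair of named genes was not called with all 15 libraries and was called when those 3 were left out. *YDL218W* (GQ67_02654), whose product is uncharacterized, was at 8.72, 8.72, and 8.75 in rhG-CSF clone 12 and at 8.45, 8.40, and 8.25 in clone 13. It was at 6.50 in rhGH 22A, 6.52 in 8A, and 7.05 in 8C, and between 9.23 and 9.76 in the other 6. The rhG-CSF cultures thus lay between both sets of rhGH libraries. The log2 fold change was -0.40 (standard error 0.43, adjusted p = 0.555 from edgeR) with all libraries and -0.87 (standard error 0.12, adjusted p = 2.12e-05) without the 3. Over clones the values were -0.36 (adjusted p = 0.468) and -0.88 (adjusted p = 0.00182). *YFL040W* (GQ67_02261), a putative transporter of the sugar transporter family, was also lowest in those 3 libraries. It stood at 8.17 to 9.18 with rhG-CSF, at 6.91 in 8A and 22A and 7.07 in 8C, and at 8.92 to 10.17 in the other rhGH cultures, of which only 25C overlapped the rhG-CSF cultures. Its log2 fold change was -0.54 (standard error 0.47, adjusted p = 0.453) with all libraries and -1.02 (standard error 0.18, adjusted p = 2.90e-04) without the 3, and -0.55 (adjusted p = 0.198) and -1.15 (adjusted p = 0.00161) over clones. In clone 16, *YDL218W* was at 8.42 to 8.82, within the range of its sister clones or just above it, but *YFL040W* was at 5.05 to 5.25, far below all 15 libraries.

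The other 3 named genes were not called with all 15 libraries. *PDR12* (GQ67_05224), an exporter of weak organic acids, was at 8.71 to 8.95 with rhG-CSF and 8.43 to 9.21 with rhGH, and the log2 fold change by edgeR was -0.09 (standard error 0.15, adjusted p = 0.733). Its 3 highest rhGH values were again 22A at 9.21, 8A at 9.20, and 8C at 9.18, and without them the log2 fold change was 0.08 (adjusted p = 0.662). *NIT1* (GQ67_00061), a nitrilase homolog, was at 3.77 to 4.80 with rhG-CSF and 2.87 to 4.85 with rhGH, and its log2 fold change was 0.48 (standard error 0.31, adjusted p = 0.292). *FLO11-BSC1* (GQ67_01392), named for flocculin-type cell wall proteins, was at 3.67 to 5.49 and at 4.21 to 5.53, and its log2 fold change was -0.25 (standard error 0.26, adjusted p = 0.552). This value moved with either rhG-CSF clone, to -1.06 (adjusted p = 0.0272) without clone 12 and to 0.28 (adjusted p = 0.514) without clone 13. Over clones, *PDR12* was at -0.10, *NIT1* at 0.57, and *FLO11-BSC1* at -0.20, none of them called (adjusted p = 0.763, 0.184, and 0.725). The cell wall gene GQ67_02041, which the study names apart from this list, was at 6.08 to 6.81 with rhG-CSF and 6.17 to 6.93 with rhGH. Its log2 fold change was -0.28 (standard error 0.13, adjusted p = 0.148), and -0.29 over clones (adjusted p = 0.243). Without the 3 libraries it was -0.36 over cultures (adjusted p = 0.0327) and -0.39 over clones (adjusted p = 0.0497). With clone 16 it was -0.34 over cultures (adjusted p = 0.0481) and -0.38 over clones (adjusted p = 0.329).

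Clones of one product were then compared with each other, with 3 cultures each and the spread taken from all 5 clones. No gene was called in any of the 4 pairs (0.00% of 4780 genes) by edgeR, with either TMM or DESeq2's size factors. At an unadjusted p under 0.05, there were 308 of the 4780 genes for rhG-CSF clone 13 over 12. For rhGH there were 116 for clone 22 over 8, 618 for clone 25 over 8, and 224 for clone 25 over 22. Chance alone gives a share of about 0.05, and the 116 and 224 genes are below it. Without rhGH 22A, 8A, and 8C, 65 genes were called for rhG-CSF clone 13 over 12, 54 higher and 11 lower in clone 13, and 1 for rhGH clone 22 over 8. The 3 libraries are of rhGH clones, so they bear on the rhG-CSF pair only through the shared spread and scaling.

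Among the named genes, *FLO11-BSC1* and *ZPS1* differed most clearly between the rhG-CSF clones. *FLO11-BSC1* was at 5.49, 4.98, and 5.20 in clone 12 and at 4.04, 3.67, and 3.72 in clone 13, on either side of most rhGH cultures. Its log2 fold change of clone 13 over 12 was -1.32 (standard error 0.30, adjusted p = 0.390), and -1.33 (adjusted p = 0.0153) without the 3 rhGH libraries. For *ZPS1*, with the values given above, it was 1.35 (standard error 0.32, adjusted p = 0.390), and 1.34 (adjusted p = 0.0288). For both genes the size was nearly the same with and without the 3 rhGH libraries. GQ67_00990 differed by 0.10 (standard error 0.23) and GQ67_02836 by 0.15 (standard error 0.27) between these clones. Both were named for a small p over clones, a choice that favours genes with little spread between clones of a product. Their small gaps are therefore no finding beside those of *FLO11-BSC1* and *ZPS1*.

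Along the identifier numbers, no long stretch of genes moved together. The running median over 51 genes of each clone's log2(CPM + 1), taken from the median of the 5 clones, stayed between -0.24 and 0.26 in all clones. Of the runs of consecutive identifiers called in the same direction, 717 held a single gene, 104 held 2, 11 held 3, and 1 held 4. The identifiers are in a numbered order, and their positions on chromosomes were not used here.

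The product difference of Y-11430 was finally set beside that of the other strains in a fit over 69 libraries, with 18 libraries in each of Y-48124, X-33, and GS115. The difference itself was called different from that in Y-48124 for 386 of 4949 genes (7.80%), from that in X-33 for 99 (2.00%), and from that in GS115 for 609 (12.3%). With counts summed by clone, these fell to 3, 1, and 9 genes. Without rhGH 22A, 8A, and 8C of Y-11430, they were 599, 297, and 707. One X-33 library, rhGH 12A, lies apart from its strain. Without it, the count against X-33 was 165. Within the other strains, 390 genes were called in Y-48124 (7.88%), 562 in X-33 (11.4%), and 77 in GS115 (1.56%). Over clones these were 0, 32 (0.634%), and 0. In the same fits, Y-11430 had 1038 genes over cultures (21.0%) and 244 over clones (4.83%). The other strains kept all their clones, but Y-11430 was without clone 16. With clone 16, the fit over Y-11430 clones alone called 20 of 4966 genes (0.403%). At an unadjusted p under 0.05, there were 554 of 5051 genes in Y-48124, 759 in X-33, and 353 in GS115 over clones. Chance alone gives a share of about 0.05 there.

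For overlaps, the Y-11430 values were those of the fit over its own 15 libraries, and those of the other strains came from the fit over 69 libraries. Of the 962 genes called in Y-11430, 240 were also called in X-33, 235 of them in the same direction. This is 24.9% of the Y-11430 calls and 42.7% of the X-33 calls. The overlap with Y-48124 was 130 genes, 115 in the same direction (13.5% and 33.3%), and with GS115 20 genes, 16 in the same direction (2.08% and 26.0%). Across genes and from these same fits, the log2 fold changes correlated with those of Y-11430 at r = 0.47 in X-33, 0.28 in Y-48124, and 0.08 in GS115. Genes share libraries and are not independent replicates, so these are descriptions.

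*ZPS1* had a larger product difference in Y-11430 than in each of the other strains over cultures. In the fit over 69 libraries it was 1.82 (standard error 0.25) in Y-11430, 0.49 (standard error 0.26) in Y-48124, 0.45 (standard error 0.24) in X-33, and -0.63 (standard error 0.23) in GS115. The difference between strains was 1.33 from Y-48124 (adjusted p = 0.0177 from edgeR), 1.37 from X-33 (adjusted p = 0.0195), and 2.45 from GS115 (adjusted p = 2.30e-06). Over clones it was called only from GS115 (adjusted p = 0.0364), with adjusted p = 0.309 and 0.584 for Y-48124 and X-33. Without rhGH 22A, 8A, and 8C, the differences were 1.29, 1.34, and 2.42, all called over cultures.

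GQ67_02836, GQ67_00990, GQ67_00393, and GQ67_01077 were named for their small p in Y-11430 on the same libraries. That choice favours a larger product difference in Y-11430, so their comparisons between strains are descriptions. Like *ZPS1*, GQ67_02836 differed from each of the other strains over cultures. The differences were 1.41 from Y-48124 (adjusted p = 1.14e-04), 1.0 from X-33 (adjusted p = 0.0143), and 1.58 from GS115 (adjusted p = 6.48e-06). Over clones none was called (adjusted p = 0.0891, 0.451, and 0.0542). Clone 16 of Y-11430, at 3.97 to 4.14 and within the rhGH range for this gene, was left out here. The other strains kept all their rhG-CSF clones. Over cultures, GQ67_00990 was higher with rhG-CSF in X-33 as well, by 1.53 (standard error 0.33, adjusted p = 7.28e-04), and in Y-48124, by 1.08 (standard error 0.33, adjusted p = 0.030). Its difference from Y-11430 was called only for GS115 over cultures. GQ67_00393 was lower with rhG-CSF in Y-48124, at -1.85 (standard error 0.37), and in X-33, at -1.78 (standard error 0.37), both called over cultures, and not in GS115, at 0.32 (standard error 0.38). Its products overlapped in both strains. In Y-48124 it was at 5.88 to 6.81 with rhG-CSF and 5.245 to 9.18 with rhGH, and in X-33 at 6.26 to 6.79 and 5.55 to 9.35. In Y-48124, no gene was called over clones. GQ67_01077 was at -0.34 (standard error 0.77) in Y-48124, -2.61 (standard error 0.64) in X-33, and 0.26 (standard error 0.48) in GS115, against -5.09 (standard error 0.77) in Y-11430. The difference from Y-11430 was called for Y-48124 and GS115 over cultures, and over clones only for GS115 (adjusted p = 0.0364). From X-33 the difference was -2.48 (adjusted p = 0.192). It was called without the library X-33 rhGH 12A, at -4.23 (adjusted p = 0.00326), so the fall in X-33 leaned on that library. It was also called without the 3 Y-11430 libraries, at -3.01 (adjusted p = 0.0415).

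**Figure D5:**
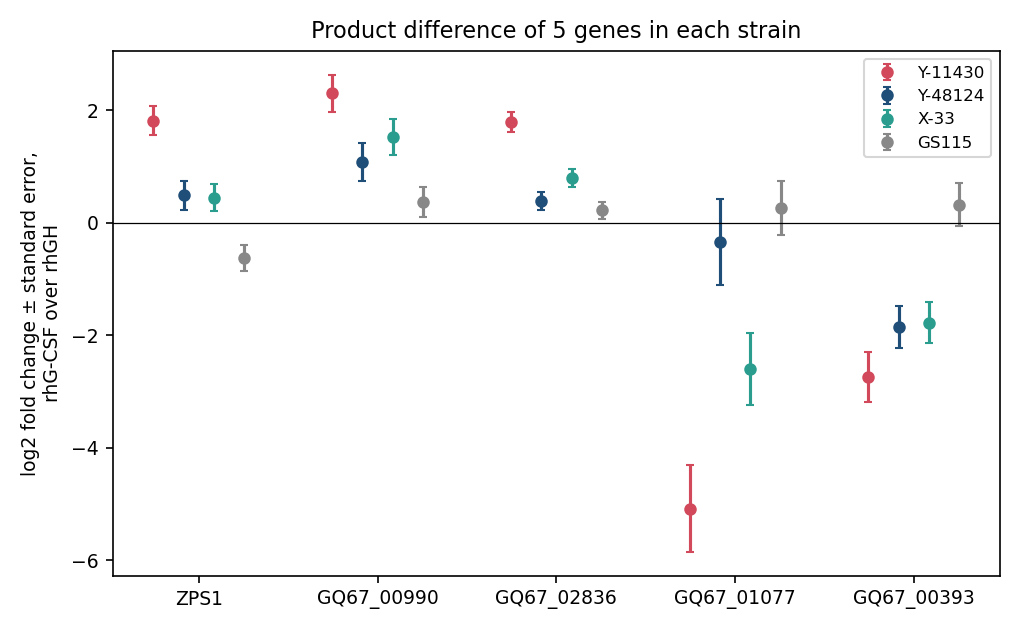
Log2 fold change of rhG-CSF over rhGH (vertical axis, points) with its standard error (bars) for 5 genes in each of the 4 strains, from the fit over 69 libraries. For *ZPS1* the point of Y-11430 is at 1.82 and those of the other strains are between -0.63 and 0.49.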

How the data were processed

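The 72 libraries were assigned to strain, product, and clone by the sample labels, and 15 formed the comparison. The authors quantified reads with Salmon 0.9.1 on 1 transcript per gene and the transgenes. The genome build and the merging of molecular identifiers are not given in the sources used here. Counts were deposited as whole numbers per gene, not normalized. Levels were deposited on a log2 scale, as the log2(TPM + 1) of the authors. Both tables hold 5120 genes and 3 transgene rows, and 0 of the identifiers occur in the reference gene table.

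Counts were tested with edgeR 4.0.16 (quasi-likelihood, TMM, filterByExpr, Benjamini-Hochberg; R 4.3.3), over cultures and over counts summed by clone, and in a fit over 69 libraries or 23 clones for the strains. The study's methods name DESeq2; DESeq2 1.42.0 was run as an alternative. Standard errors are the log2 fold change divided by the square root of F. p-values over cultures measure the spread between cultures, which include repeats of a clone.

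The members and lists were chosen with earlier results of these data known. Named were the 8 genes that the study pairs with names, GQ67_02041, and, among genes called over clones whose cultures did not overlap, the 2 higher and 2 lower with the smallest p. Pairs of cultures of a clone differed beyond sampling noise (chi-square per degree of freedom 2.24 to 67.2 over 15 pairs, genes with at least 20 counts in a pair), so none was merged in the fits over cultures. The fits over clones sum these cultures all the same, and a culture with more counts weighs more in the sum. Alternatives were DESeq2's size factors, transgenes in library sizes, other filters on low counts (none, or at least 10 in every library), limma 3.58.1 on log2(TPM + 1) or log2(CPM + 1) with a pseudocount of 1, limma-voom with the clone as a random block, the culture letter as a replicate block, clone 16 included, an absolute log2 fold change above 1, counts thinned to 554853 per library, and each clone or library left out. Python 3.11.15, NumPy 2.4.6, pandas 2.3.3, SciPy 1.17.1 and Matplotlib 3.10.9 served for the tables and plots.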

Additional observations from a re-analysis of the deposited data

Results flagged for a closer look

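Levels of the 13 named genes, the 3 transgenes, and the total counts were examined for a culture far from the others of its product, in 34 groups. In 3 groups 1 culture lay far from the rest, where chance alone gives about 1.7. GQ67_02041 was highest in rhG-CSF 12A, at 6.81, with the next culture at 6.31. GQ67_00990 was lowest in rhGH 8C, at 3.74, with the next at 4.16, from 9 counts. The rhG-CSF transgene was highest among rhGH libraries in 22C, at 7.98, with the next at 6.49.

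The product difference of 5 named genes differed between Y-11430 and another strain in 10 of 39 tests over cultures (edgeR's quasi-likelihood test, adjusted over all genes), where 7.80% of all genes differed from Y-48124, 2.00% from X-33, and 12.3% from GS115. Of these genes, 4 were named for their small p in Y-11430 on the same libraries, so the count is a description. Over clones, 2 of the 39 were called, *ZPS1* and GQ67_01077 from GS115. For *ZPS1* it was larger by 1.33 than in Y-48124, by 1.37 than in X-33, and by 2.45 than in GS115. For GQ67_02836 it was larger by 1.41 than in Y-48124, by 1.0 than in X-33, and by 1.58 than in GS115. For GQ67_00990 it was larger by 1.94 than in GS115. For GQ67_01077 it was at -4.75 from Y-48124 and -5.35 from GS115, and for GQ67_00393 at -3.06 from GS115. Clone 16 of Y-11430, which was left out, did not share the rise of GQ67_02836.

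The transgene of the other product, which the label of a library does not name, had counts in all 15 libraries. The rhGH transgene took 0.00435 to 0.0226% of the counts in rhG-CSF libraries and the rhG-CSF transgene 0.00371 to 0.0247% in rhGH libraries, above the 3 counts taken as the floor. The product of the label took 0.597 to 1.30% in the same libraries.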

How the results depend on the processing

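The 13 named genes kept their direction and their side of the threshold in 424 of 438 alternative values over cultures. These alternatives share most of their libraries, and the one with an absolute log2 fold change above 1 repeats the main fold changes. Of the 13 genes, 4 were also named for their small p on these libraries. The count is thus a description and not a measure of independent support. In the fit over clones, 5 of the 13 genes were called, and 0 with clone 16. *YDL218W* turned from -0.40 to 0.0352 and 0.0244 with limma on log2(TPM + 1) and log2(CPM + 1) and to 0.0479 with limma-voom, *FLO11-BSC1* ranged from -1.06 (called) without clone 12 to 0.28 without clone 13, *CTR1* turned to 0.000302 with clone 16, and *PDR12* to 0.0828 without rhGH 22A, 8A, and 8C. The 962 calls over cultures became 464 with counts summed by clone and 214 above an absolute log2 fold change of 1, and ranged from 362 to 998 with a clone or library left out. The 464 calls over clones became 961 without rhGH 22A, 8A, and 8C, 20 with clone 16, 244 with 23 clones in the fit, and 202 above an absolute log2 fold change of 1, and ranged from 109 to 895 with a clone left out; a lone rhG-CSF clone is then assumed to vary like the rhGH clones. Against Y-48124, the 386 calls became 3 over clones and 599 without the 3 libraries. Against X-33, the 99 became 1, 297, 165 without X-33 rhGH 12A, and 217 with clone 16. Against GS115, the 609 became 9 over clones. The calls within Y-48124, X-33, and GS115 became 0, 32, and 0 over clones. Without the 3 libraries, the calls between clones became 65 for rhG-CSF clone 13 over 12 and 1 for rhGH clone 22 over 8, 10 instead of 5 genes of the list of 20 were called, and 569 instead of 270 genes did not overlap, or 163 with clone 16. The list gave 2 to 6 calls with a clone or library left out. DESeq2 called 1069 genes over cultures and 554 over clones. The causes were not tested. With the culture letter as a replicate block, 951 genes were called. Between the products, same-lettered deviations from the product means correlated at 0.01, -0.01, and 0.03, and 1 of 3 letters correlated best with itself. No pairing by letter was thus seen between products, and pairing within a product was not tested. Depth limits low genes, as GQ67_01077 had 4 to 13 counts in rhG-CSF libraries, and thinning to the lowest total left 733 calls.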
